A study of Brassica napus with 12 samples.

Results

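In canola (Brassica napus), 75 of 60756 gene IDs were far higher in ribosome-bound leaf RNA of every plant line of the experiment labelled EUE than in any library of the experiment labelled PEG. An ID was taken when its lowest level over the 6 EUE libraries was at least 1 CPM (the count divided by the library's total, times 1000000) and at least 4 times its highest level over the 6 PEG libraries. IDs of 1 stretch of consecutive ERC numbers, a separate block of IDs, were left out, and 2 of them met these levels. The members were thus chosen by their measured EUE and PEG levels, so the difference between the experiments is described here without a test. Every EUE library lay above every PEG library for 7.36% of the 36410 IDs abundant enough to test, and for the 75 by choice.

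The material was the fourth leaf of 26-day-old untreated plants raised for 2 weeks on agar and then for 12 days in soil, and all 12 libraries carry the same cultivar label. In the PEG experiment, a control line and the epilines PEG-1 and PEG-2 had 2 libraries per line. In the EUE experiment, a control line and the EUE selected epiline had 3 libraries per line. The series' design text speaks of 2 epilines, selected because they respired little and held much NAD(P)H, and of triplicates; the labels list 3 epilines and 2 libraries per PEG line, and the labels were followed. The labels call the libraries biological replicates without saying whether they come from separate plants, so p-values measure the spread between these libraries, which may be technical. Line origin goes with the experiment, as would any difference in growth, harvest or library preparation between the experiments. The labels name no such batches, so these cannot be told apart in any EUE against PEG difference. Totals ran from 36210542 to 42696798 counts per library.

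A polysome is an mRNA carrying several ribosomes, so the level of an ID in polysomal RNA depends on how much of the mRNA there is and on how much of it is being translated. Fewer cells that carry a transcript and less of it per cell cannot be told apart in such whole-leaf RNA. Canola is an allotetraploid that carries the related genomes of Brassica rapa and Brassica oleracea, so many genes have near-identical copies whose reads can be hard to assign. A transcript that one plant stock has and another lacks can reflect the presence of a gene copy, its expression, or the copy to which its reads were assigned, and these were not tested here. The IDs are numbers with the prefix ERF, the prefix ERC, or a joined pair of both. The files give no names for them, and the RefSeq table for canola held 0 of the IDs, so no function is given.

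Within the 75, 21 were absent in PEG, meaning at most 0.1 CPM in every PEG library, and 54 were only lower. The absent IDs comprised 14 with an ERF number alone, 5 with an ERC number alone and 2 joined IDs. The IDs that were only lower comprised 35, 10 and 9 of these classes. Class was not part of the rule, except that the left-out stretch of ERC numbers could hold no ERF-only ID. The 2 left-out IDs that met the levels were both joined. IDs with an ERF number alone made up 65.3% of the 75, against 24.7% of the 24480 IDs outside the left-out stretch with a lowest EUE level of at least 1 CPM. Joined IDs made up 14.7% of the 75 and 55.9% of those IDs. IDs with an ERC number alone were at 20% and 19.4%. When the experiments were exchanged in the same rule, 87 IDs were far higher in PEG, of which 42.5% were ERF alone, 42.5% ERC alone and 14.9% joined. Joined IDs thus had a like share in both sets, and the share of ERF-only IDs was larger among the EUE-high IDs. Over all 60756 IDs, 36.1% were ERF alone, 28.9% ERC alone and 35% joined, so class also went with abundance. The 24480 IDs were not matched to the members in abundance, and no baseline by PEG level was made for the PEG-high IDs. All these shares are descriptions, because the IDs were chosen with results of these data known.

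**Figure D1:**
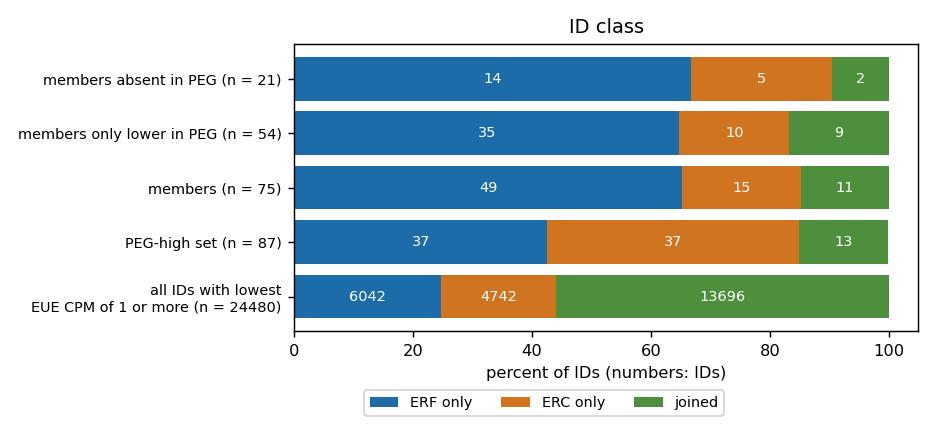
Percent of IDs of each class (ERF number only, ERC number only, joined) as stacked bars for 5 sets of IDs, with the number of IDs printed in each segment. ERF-only IDs make up 65.3% of the 75 members and 24.7% of the 24480 IDs with a lowest EUE level of at least 1 CPM, while joined IDs make up 14.7% and 55.9%.

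Together the 75 IDs held little of the leaf's polysomal RNA. Their summed level in the EUE libraries was lowest at 1191 CPM, had a median of 1352 CPM and was highest at 1569 CPM. In the PEG libraries it was 56.2, 59.9 and 65.5 CPM. The mean sum and its SD were 1353 ± 67.9 CPM for the EUE control (n = 3) and 1374 ± 189 CPM for the EUE epiline (n = 3), a difference smaller than the spread between libraries. With n = 2 per line, they were 62.6 ± 4.12 CPM for the PEG control, 61.3 ± 1.64 CPM for PEG-1 and 56.6 ± 0.611 CPM for PEG-2. The 5 most abundant IDs made up 47.3% of the sum of EUE means. Most members were scarce: the median of the EUE means was 5.98 CPM, 21 IDs reached 10 CPM and 32 lay under 5 CPM.

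**Figure D2:**
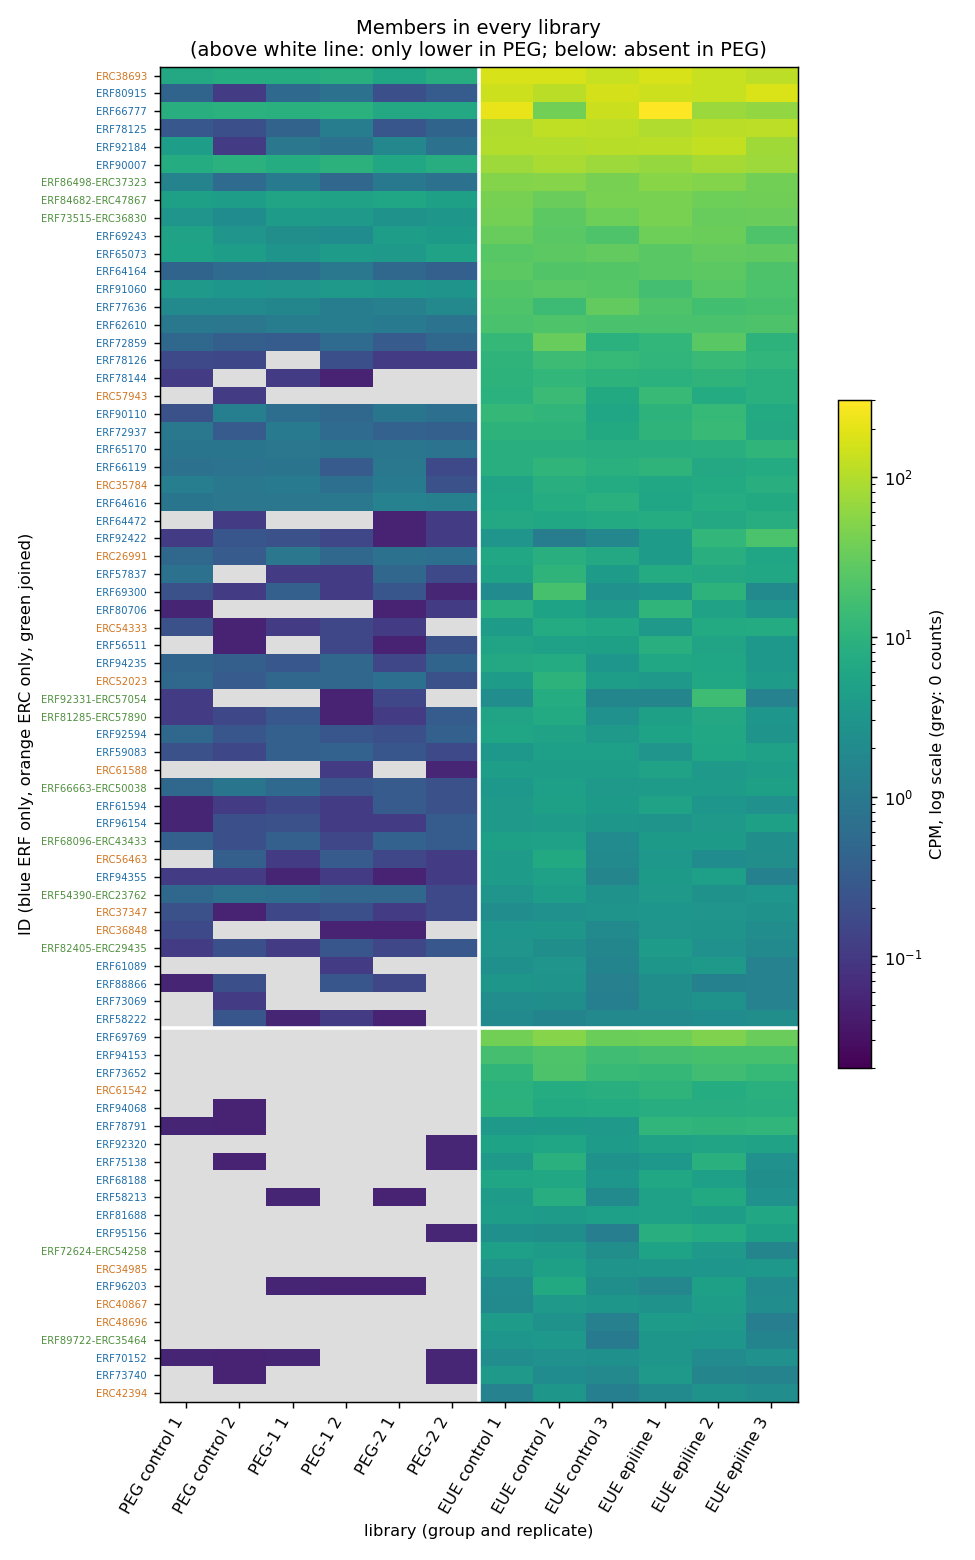
CPM of the 75 members (rows) in the 12 libraries (columns) on a log colour scale, with grey for 0 counts. Members are ordered by their EUE mean above and below the white horizontal line. By choice, the 21 below it were at most 0.1 CPM in every PEG library, and all 75 have a count in all EUE libraries.

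Among the IDs absent in PEG, 12 had 0 counts in all 6 PEG libraries and 9 had between 1 and 4 read pairs over the 6 together. All counts in the file were even, as if both mates of a pair were counted, so for the 12 each PEG library was set to a floor of 3 read pairs, or 6 counts, which corresponds to 0.161 CPM on average over the PEG libraries. Against that floor, which covers counting error only, these 12 were at least 13.4-fold to at least 251-fold higher in EUE.

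ERF69769 was the most abundant absent ID. Its level was 39.3, 52.1 and 34.4 CPM in the EUE control and 35.6, 47.5 and 33.5 CPM in the EUE epiline, with 0 counts in all 6 PEG libraries, at least 251-fold higher in EUE. The EUE lines overlapped, and replicate 2 was the highest library of each. ERF94153 followed at 17.6, 21.1 and 15.9 CPM in the EUE control and 17.4, 18.2 and 18 CPM in the epiline, again with 0 counts in PEG, at least 112-fold higher. Here the epiline libraries lay within the range of the control.

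The ERC-only and joined IDs of the absent group were less abundant. ERC61542 was at 9.14, 7.77 and 8.62 CPM in the EUE control and 10.4, 7.61 and 8.90 CPM in the epiline, at least 54.4-fold above the PEG floor. ERC34985 was at 3.07, 4.78 and 2.90 CPM in the control and 3.19, 3.18 and 3.32 CPM in the epiline, at least 21.2-fold higher. Neither had a count in PEG, and in both the EUE lines overlapped. The joined ID ERF72624-ERC54258 was at 4.52, 3.97 and 2.34 CPM in the EUE control and 5.26, 3.48 and 1.61 CPM in the epiline, at least 22-fold higher. ERF89722-ERC35464 was at 3.12, 3.42 and 1.03 CPM and at 3.19, 3.09 and 1.52 CPM, at least 15.9-fold higher. Replicate 3 was the lowest library of either line for both joined IDs, so their level varied more between replicates than between lines.

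The 54 IDs that were only lower in PEG spanned a wide range of differences. The ratio of the EUE mean to the PEG mean had a median of 19.9; it was under 10 for 9 IDs, from 10 to under 20 for 19, from 20 to under 50 for 10 and 50 or more for 16. Most of the ratios of 50 or more rest on few PEG read pairs, such as 2 for ERF61089 and ERF73069 and 3 for ERC61588. Others were better counted, such as ERF86498-ERC37323 with 99. IDs absent in PEG had up to 4 read pairs, so at this end the split follows the CPM limit only. Some of the most abundant members in EUE had only a few reads in PEG. ERF80915 was at 142, 111 and 158 CPM in the EUE control and 144, 135 and 176 CPM in the epiline, against 0.441 and 0.106 CPM in the PEG control, 0.538 and 0.732 CPM in PEG-1 and 0.209 and 0.331 CPM in PEG-2. From summed read pairs it was 370-fold higher in EUE, with a 95% exact interval of 276 to 510 for counting error. ERC57943 had only 2 read pairs in PEG, both in PEG control replicate 2, and a level in EUE of 9.47, 13.9 and 6.93 CPM in the control and 13.2, 7.36 and 8.90 CPM in the epiline. Its ratio of 551 therefore has a wide interval, from 152 to 4556.

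Other members kept a clear level in PEG. ERC38693, the member with the highest EUE mean, was at 170, 167 and 134 CPM in the EUE control and 170, 132 and 114 CPM in the epiline. In the PEG experiment it was at 6.67 and 7.82 CPM in the control, 7.63 and 8.68 CPM in PEG-1 and 5.74 and 7.90 CPM in PEG-2, which is 5.01% of its EUE mean. The joined ID ERF84682-ERC47867 was at 41.4, 32.8 and 42.6 CPM in the EUE control and 43.6, 36.5 and 37.0 CPM in the epiline, against 4.33 to 5.74 CPM over the PEG libraries, a ratio of means of 7.75. For both IDs the 3 PEG lines overlapped and the EUE lines overlapped. The other named joined ID, ERF86498-ERC37323, was at 38.5, 50.9 and 53.8 CPM (lowest, median and highest) over the EUE libraries and at 0.471, 0.855 and 1.49 CPM over the PEG libraries, a ratio of means of 54.2.

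Of the 11 members with a mean of at least 1 CPM in PEG, 10 had a highest PEG library between 1.23 and 2.34 times the lowest. ERF92184, named after its values were seen, was the exception, with 4.35 CPM in PEG control replicate 1 and 0.106 CPM in replicate 2, 41.2 times apart. Its level in EUE was 77.5, 103 and 123 CPM (lowest, median and highest), so its margin over PEG depends on 1 PEG library.

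**Figure D3:**
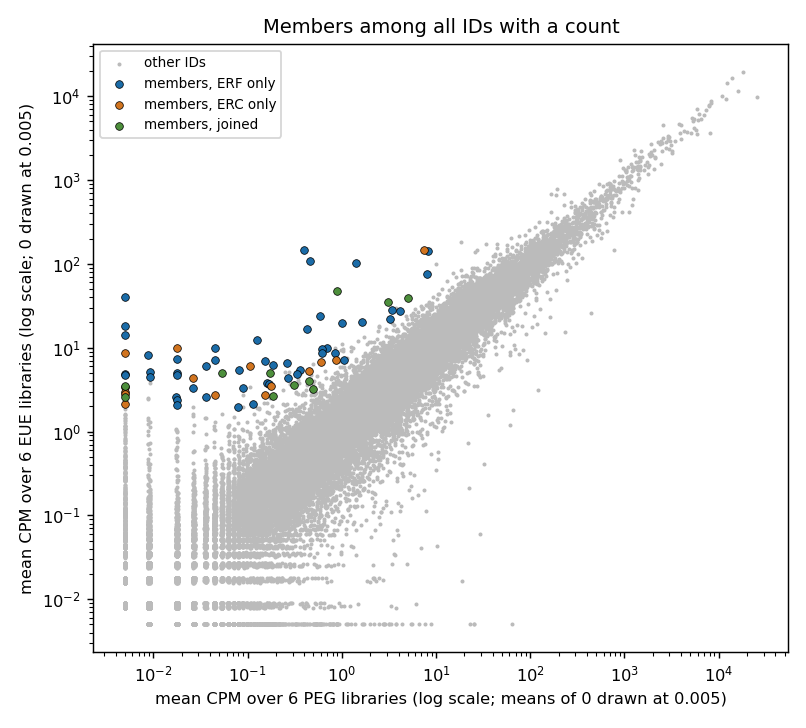
Mean CPM over the 6 EUE libraries against mean CPM over the 6 PEG libraries for all IDs with a count, on log axes, with members coloured by ID class, other IDs in grey and means of 0 drawn at the edge. Members lie above the diagonal cloud by choice; those at the left edge had 0 counts in PEG, and the 5 with an EUE mean of at least 100 CPM had PEG means between 0.393 and 8.23 CPM.

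At the edge of the rule, ERF66663-ERC50038 was taken with a lowest EUE level of 3.39 CPM against a highest PEG level of 0.845 CPM, a ratio of 4.01, and ERF54390-ERC23762 with 2.76 against 0.687 CPM, a ratio of 4.02. ERF63974 was just left out with 2.64 against 0.663 CPM, a ratio of 3.98, as was ERF66413-ERC32058 with 1.73 against 0.441 CPM, a ratio of 3.93. The levels on either side of the limit were alike.

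Members differed widely in how steady they were inside the EUE experiment. The highest EUE library was 1.97 times the lowest in the median member, and 1.76 times in the median of the 24480 IDs with a lowest EUE level of at least 1 CPM. It was over 3 times for 16 members (21.3%, against 12.9% of those IDs) and under 1.5 times for 19 (25.3%, against 29.5%). ERF62610, named after its values were seen as the steadiest, was at 18.8, 19.2 and 21.0 CPM (lowest, median and highest) in EUE, with 0.773 to 1.15 CPM in PEG. ERF66777 was among the least steady, at 216, 39.0 and 140 CPM in the EUE control and 321, 69.7 and 63.5 CPM in the epiline, against 6.68 to 9.46 CPM in PEG. Replicate 1 was its highest library in both EUE lines, so its large mean and its wide spread come from the same libraries. For 24 members (32%) replicate 2 was the highest library of both EUE lines, as it was for 24.7% of the 24480 IDs. Replicate 3 was the highest in both for 3 members (4%) and for 14.8% of those IDs. All these values come from EUE libraries that the rule used. The 24480 IDs had to meet only part of that rule and were not matched to the members in abundance. Nothing is therefore read from the members' shares against theirs.

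The EUE epiline was then compared with the EUE control, a contrast that the choice of members did not use directly. The rule asks for a high level in every EUE library, so an ID lost from one EUE line could not be a member. The 36410 tested IDs had no such limit on their EUE level, so nothing is read from the members' shares against theirs. The fitted difference was under 1.5-fold for 69 of 75 members (92%, against 86.4% of the 36410 tested IDs). Of all 75, 28 were positive and 47 negative. The median log2 fold change of the members was -0.05, beside -0.03 over all tested IDs. edgeR's quasi-likelihood test called 0 of 75 members (0% of all tested IDs), and 3 had an unadjusted p under 0.05, all higher in the epiline, as were 3.54% of tested IDs; 0 were lower, against 0.634%. These 3 were also the members for which every epiline library lay above every control library (5.11% of tested IDs), and 0 members had every epiline library below (1.7%). DESeq2 called the 3 (1.04% of the IDs it tested). The main edgeR fit did not pair the EUE libraries by replicate number. With numbers blocked, its fitted relative spread between libraries (biological coefficient of variation) fell from 32.2% to 18.7%. Of these 3 members, 2 then passed in edgeR, ERF78791 and ERF95156 (0.19% of tested IDs).

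ERF78791 had the smallest p. It was at 3.66, 3.75 and 3.56 CPM in the EUE control and at 11.3, 10.4 and 11.1 CPM in the epiline, with 2 counts in each PEG control library and 0 in PEG-1 and PEG-2. The lines were far apart and replicates differed little: mean and SD were 3.66 ± 0.0944 CPM against 11.0 ± 0.451 CPM, n = 3 each. The log2 fold change was 1.52 (standard error, SE, 0.207; edgeR's adjusted p = 0.272; 0.0468 with the replicate block; 7.86e-07 in DESeq2), and over the alternatives it stayed between 1.49 and 1.58, with adjusted p from 7.86e-07 to 1.

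ERF95156, also absent in PEG but for 1 read pair in PEG-2 replicate 2, showed a like ratio at lower precision. It was at 2.53, 2.44 and 1.22 CPM in the EUE control and 8.34, 7.41 and 4.64 CPM in the epiline. Replicate 3 was the lowest library in both lines, and the lines did not overlap. The difference on the log2 scale was 1.67 (SE 0.415; edgeR's adjusted p = 0.339; 0.0476 with the replicate block; 0.00583 in DESeq2; up to 1 over the alternatives).

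ERF92422 had the largest fitted difference of the 75, with libraries of the epiline far apart. It was at 3.01, 1.20 and 1.69 CPM in the EUE control and 3.88, 11.8 and 19.6 CPM in the epiline, against 0.0522 to 0.264 CPM in PEG. Replicate 1 of the epiline lay close above the highest control library, while replicates 2 and 3 were far above it. The log2 fold change was 2.53 (SE 0.556; edgeR's adjusted p = 0.273; 0.114 with the replicate block; 0.00199 in DESeq2; up to 1 over the alternatives). It was 2.95 without EUE epiline replicate 1, where its edgeR adjusted p was 0.0238, and 1.89 without EUE epiline replicate 3.

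**Figure D4:**
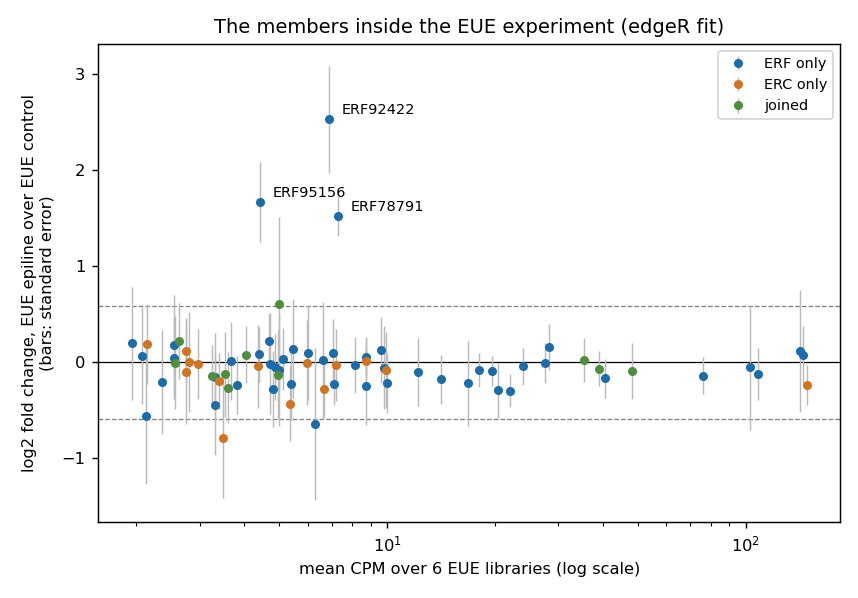
Log2 fold change of the EUE epiline over the EUE control (edgeR fit, bars are standard errors) against the mean CPM over the 6 EUE libraries for the 75 members, coloured by ID class; dashed lines mark 1.5-fold. ERF92422 (2.53), ERF95156 (1.67) and ERF78791 (1.52) stand apart, and 69 members lie between the dashed lines.

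In the other direction no member came near the threshold. ERF91060 was at 22.6, 25.2 and 23.7 CPM in the EUE control and 16.7, 24.4 and 19.6 CPM in the epiline, a log2 fold change of -0.30 (SE 0.171; edgeR's adjusted p = 1). ERC56463 was at 4.14, 7.01 and 2.01 CPM and at 3.35, 2.14 and 2.30 CPM, a log2 fold change of -0.78 (SE 0.625; edgeR's adjusted p = 1). Their lines overlapped, though ERF91060 was lower in the epiline in each same-numbered pair (edgeR's adjusted p = 0.562 with the replicate block). Among IDs absent in PEG, the lowest ratios of epiline to control means were 0.758 for ERF96203, at 2.10, 6.79 and 2.44 CPM in the control and 1.70, 4.78 and 2.10 CPM in the epiline, and 0.856 for ERF68188, at 5.97, 6.41 and 3.14 CPM and at 6.27, 4.58 and 2.44 CPM. Both overlapped between the lines. ERF96203 was lower in the epiline in each same-numbered pair (edgeR's adjusted p = 0.796 with the replicate block), but its fitted sign turned without EUE control replicate 2 (0.21), as did that of ERF68188 without EUE epiline replicate 3 (0.0011). Over all members, the epiline was lower in every same-numbered pair for 9 (10.7% of tested IDs) and higher in every pair for 8 (17.8%).

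Within the PEG experiment the members had few reads. They entered these tests through their EUE level, so their counts are given as a description and nothing is read from them against the share of all IDs. For PEG-1 against the PEG control, 42 of 75 members exceeded the floor of 6 counts in at least 1 compared library, and their median log2 fold change was -0.02. edgeR called 0 members (0% of tested IDs), as did DESeq2 (0.424% of its tested IDs) and edgeR with the replicate block (0.00275%). An unadjusted p under 0.05 was given for 3 higher members (1.88% of tested IDs) and 4 lower members (1.72%), but 3 of the 4 lower members never exceeded the floor. Each PEG-1 library exceeded each control library for 10 members (18.4% of tested IDs), 9 of them above the floor. Each was below each control library for 5 (12.2%), 3 of them above the floor.

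For PEG-2 against the same controls, 43 members exceeded the floor, with a median log2 fold change of -0.10. edgeR called 0 members (0% of tested IDs), as did DESeq2 (0.0334%). An unadjusted p under 0.05 was given for 1 higher member (1.03%) and 3 lower members (0.849%), and 2 of these 3 never exceeded the floor. Both PEG-2 libraries lay above both controls for 4 members (13.9%), all above the floor, and below for 6 (12.2%), 4 of them above it. The PEG lines share their control libraries, so these comparisons are not independent.

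The member with the smallest p in PEG-1 was ERF78125. It was at 0.276 and 0.211 CPM in the PEG control, 0.430 and 1.15 CPM in PEG-1 and 0.261 and 0.442 CPM in PEG-2. The PEG-1 value rests mostly on replicate 2, with 44 counts, against 8 and 10 in the controls. The log2 fold change was 1.65 (SE 0.464; edgeR's adjusted p = 0.815), and 0.77 without PEG-1 replicate 2. ERF80915 was next among those higher in PEG-1, with a log2 fold change of 1.18 (SE 0.511; edgeR's adjusted p = 1). It was 2.47 without PEG control replicate 1 and 0.53 without PEG control replicate 2. The PEG mean was 0.426% of the EUE mean for ERF78125 and 0.272% for ERF80915, so these are differences between low levels. ERF69243 had lower values in PEG-1, at 2.31 and 2.14 CPM against 5.02 and 2.96 CPM in the control, with 4.44 and 3.76 CPM in PEG-2, and a log2 fold change of -0.88 (SE 0.313; edgeR's adjusted p = 1). PEG-1 and the PEG control did not overlap for it, though the control libraries differed more from each other than control replicate 2 did from PEG-1. ERF78791 was also among the lowest p in either PEG line, but its 2 counts per control library lie under the floor, so no fold is given.

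In PEG-2, ERF61594 was at 0.313 and 0.221 CPM against 0.0551 and 0.106 CPM in the control, and ERF64616 at 1.41 and 1.33 CPM against 0.827 and 0.898 CPM, both with an edgeR adjusted p of 1. ERF64616 was among the better measured, with 0.914 and 0.941 CPM in PEG-1, and its log2 fold change in PEG-2 was 0.65 (SE 0.300). ERF66663-ERC50038 had lower values in PEG-2, at 0.313 and 0.221 CPM against 0.496 and 0.845 CPM, a log2 fold change of -1.34 (SE 0.440; edgeR's adjusted p = 1). Its PEG-1 libraries, at 0.538 and 0.261 CPM, lay between or below the controls.

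Whether the EUE epiline effect differed from a PEG effect was tested directly, as a test added after the data were seen. edgeR called 0 members and 0 of all 36410 IDs for either PEG line. Among members above the floor, an unadjusted p under 0.05 was given for 3 of 42 with PEG-1 and 4 of 43 with PEG-2. Over all 36410 IDs it was given for 405 with PEG-1 and 337 with PEG-2. The members entered this test through their EUE level, so nothing is read from their counts against those of all IDs. Members that never exceeded the floor have no PEG effect that these reads can measure, so no count is given for them.

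The ID numbers of the members were then looked at, as a property that the rule did not use apart from the left-out stretch. Whether numbers follow the order of genes on chromosomes is not given in the sources used here. The 60 ERF numbers among the members ran from 54390 to 96203 with a median gap of 446, and the 26 ERC numbers from 23762 to 61588 with a median gap of 1046. The members' numbers thus covered a wide range, with 4 gaps of at most 20 in the ERF series and 1 in the ERC series. Whether this is more than ungrouped numbers would give was not tested.

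The closest members were ERF78125 and ERF78126, with ERF78144 nearby; the latter pair was named after the values were seen. ERF78125 was at 94.1, 112 and 120 CPM (lowest, median and highest) in EUE, and ERF78126 at 10.4, 11.8 and 14.3 CPM with 0 to 0.209 CPM in PEG. ERF78144 was at 8.85, 10.0 and 11.6 CPM in EUE and at most 0.110 CPM in PEG. ERF78124 fell just short of the rule, with a lowest EUE level of 0.995 CPM and a highest PEG level of 0.159 CPM. The next ID, ERF78127, was about as abundant in both experiments, at means of 43.5 CPM in EUE and 51.9 CPM in PEG. Others in the stretch went the other way, such as ERF78149-ERC59239 with means of 0.0560 CPM in EUE and 2.04 CPM in PEG. The stretch was therefore mixed. ERC57943, the ERC-only member described above, has the ERC number just before that of ERF78128-ERC57944, so it sits in the same stretch when joined IDs are used to line up the numbers. It was the only one of the 15 ERC-only members placed this way within 20 ERF numbers of another member.

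**Figure D5:**
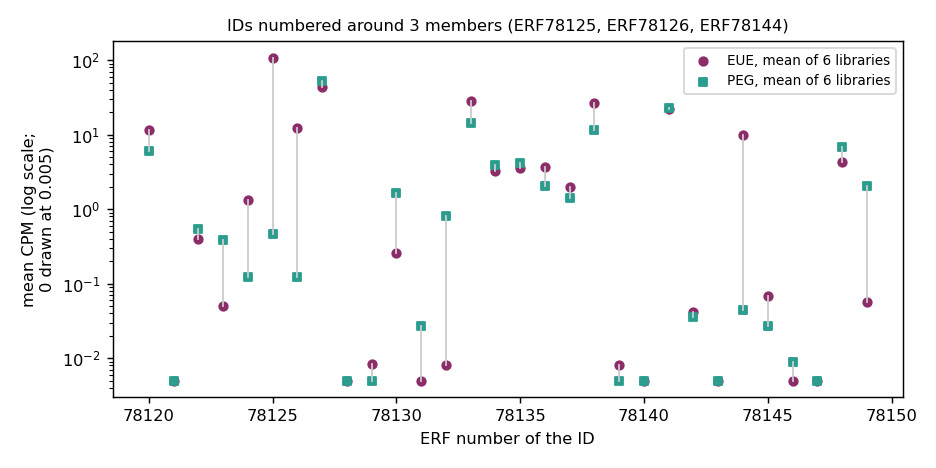
Mean CPM over the 6 EUE libraries (circles) and the 6 PEG libraries (squares) on a log axis for the IDs with ERF numbers around the members ERF78125, ERF78126 and ERF78144. ERF78125 is at 108 CPM in EUE and 0.462 CPM in PEG, while ERF78127, 2 numbers on, is at 43.5 and 51.9 CPM.

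Most of the direct neighbours in number that reached a mean of 1 CPM over both experiments were not changed like the members. Scarcer neighbours, some of which differed strongly in either direction, were left out. Of 38 different IDs next to a member in the ERF series that were not members and had a mean of at least 1 CPM over both experiments, 8 were at least 2-fold higher in EUE (21.1%) and 1 at least 2-fold lower (2.63%). In the ERC series 5 of 25 were higher (20%) and 2 lower (8%). Among all 27696 IDs of that abundance 7.49% were at least 2-fold higher in EUE and 3.94% lower, with a median log2 ratio of EUE to PEG of 0.17. The median log2 ratio of the neighbours was 0.23 in the ERF series and 0.24 in the ERC series, close to that of all IDs. The share at least 2-fold higher in EUE was larger among the neighbours than among all IDs in both series. ERF84683-ERC47866, next to ERF84682-ERC47867 in both series, was the most abundant of the higher neighbours, with means of 172 CPM in EUE and 44.9 CPM in PEG. It and ERF73514-ERC36831 were counted among the higher neighbours of both series, so the counts of the series overlap.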

How the data were processed

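Polysomal leaf RNA was extracted from sucrose gradients and sequenced by BGI, as the labels' protocols state. GSNAP and SAMtools appear in the submitters' processing notes with no version or role. Genome, annotation, counting program and strand setting: not given in the sources used here. The authors deposited whole-number read counts per gene ID, not normalized, 1 column for each of 12 libraries; 0 columns belonged to other samples and 0 values were odd. CPM was computed as the count over the column total, times 1000000. The members, lists and tests were chosen with earlier results of these data known, and no gene list could be followed because the IDs have no names.

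Differences within an experiment were tested in R 4.3.3 with edgeR 4.0.16 (TMM normalization, filterByExpr with a minimum count of 10, quasi-likelihood F-test, 1 mean for each of 5 groups, Benjamini-Hochberg over 36410 IDs, threshold 0.05); DESeq2 1.42.0 was an alternative. All 75 members passed the filter, which a high EUE level alone ensures. The fit was tested on simulated data drawn with less spread between libraries than in these data, so its power here was not measured. Fold changes of the tests are on TMM-scaled counts; standard errors come from the F statistic.

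The IDs named are the 2 with the highest EUE mean in each of the 6 subsets, the 2 on each side of the ratio limit, the 2 with the smallest p in each direction of each comparison, and the absent IDs with the 2 highest and 2 lowest epiline to control ratios. Others are said to have been named after their values were seen.

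Replicates differed beyond sampling noise (chi-square per gene on halved counts from 16.9 to 54.9, where noise gives about 1). Deviations of same-numbered EUE libraries from their group means correlated with r from 0.60 to 0.73 over 17413 IDs, each over 0.1, so the numbers were taken to pair them; this rests on the data alone, as no label explains the numbers. PEG groups share only 2 numbers, and their pairing was not examined. The replicate block, run as an alternative, was still fitted to both experiments, so PEG results quoted with it also match libraries by number.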

Additional observations from a re-analysis of the deposited data

How the results depend on the processing

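The number of members was 75 and was 68 with TMM-scaled CPM, 69 with DESeq2-scaled CPM, 106 and 58 with a lowest EUE level of 0.5 and 2 CPM, and 76 to 85 with 1 library left out; it was 180 with a ratio of at least 2 and 46 with at least 8. The 68 and the 69 were all among the 75. The number absent in PEG was 21; it was 43 with a lowest EUE level of 0.5 CPM, 13 with 2 CPM, 12 when only IDs with 0 PEG counts were taken and 48 with a limit of 0.5 CPM, and 21 to 24 with 1 library left out. In the EUE comparison, members called went from 0 to 3 in DESeq2, to 2 with the replicate block, and to 0 to 2 with 1 library left out; the 2 came without EUE epiline replicate 1. The median log2 fold change of the members there ranged from -0.10 to 0.02 with 1 library left out. With 1 library left out, the log2 fold change of ERF68188 ranged from -0.61 to 0.0011 (sign turned without EUE epiline replicate 3) and that of ERF96203 from -0.99 to 0.21 (without EUE control replicate 2). In the PEG comparisons 0 members were called under any alternative run, the replicate block included, and with 1 library left out the median over all 75 was 0 for PEG-1 and from -0.02 to 0 for PEG-2. A lone library left in a group was assumed to vary like the others. Members with no count in the compared PEG libraries were fitted at 0, which holds the PEG medians over all 75 near 0. In the main fit, the median was -0.07 for PEG-1 over the 61 members with a count. For PEG-2 it was -0.09 over 62. The replicate block changed no other call of a member. Members with few PEG reads limit any statement on the PEG lines: a library with 0 counts allows up to 6 counts.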

Other observations

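A few IDs numbered next to a member went the opposite way between the experiments. They were picked after their values were seen as all measured neighbours at least 2-fold lower in EUE, and whether the paired IDs are gene copies is not known. ERC26990 had means of 4.63 CPM in EUE and 31.2 CPM in PEG, while its neighbour ERC26991, a member, was at 3.99 to 8.61 CPM in EUE and 0.317 to 0.914 CPM in PEG. ERC50039 had means of 1.17 CPM in EUE and 4.81 CPM in PEG, beside the member ERF66663-ERC50038. ERF73651-ERC58638 had means of 5.84 CPM in EUE and 14.3 CPM in PEG, beside the member ERF73652, which was at 10.9 to 20.4 CPM in EUE with 0 counts in PEG. The 2 IDs of the left-out stretch that met the levels of the rule were both joined, ERF86525-ERC35961 with means of 19.5 CPM in EUE and 3.41 CPM in PEG, and ERF86537-ERC35977 with 5.17 and 0.277 CPM.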
